A study of Mus musculus with 12 samples.

Results

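The apelin and Cxcl12 systems were followed through 5 genes, the receptors Aplnr, Cxcr4 and Ackr3 and the ligands Apln and Cxcl12, of 80012 loci counted in the series. A gene was taken as the assembled locus whose transcripts carry its name, and each of the 5 names matched 1 locus. All 5 were among the 17931 loci tested, which had a mean of over 0.1 FPKM (fragments per kilobase of exon, scaled to library size) in at least 1 group. That rule goes by name and uses no expression value, although the 5 names were proposed with earlier results of these data known. Poly(A) RNA was sequenced from 12 libraries of a C57BL/6 mouse embryonic stem cell line, 4 per group, and every group carried the same Eomes-EGFP allele, in which green fluorescent protein is placed at the start of the endogenous Eomes gene. The first group, ESC, was the line at day 0 in serum and leukemia inhibitory factor on mouse embryonic fibroblast feeders. The other 2 groups came from day 3 hanging-drop embryoid bodies sorted by fluorescence into an Eomes-negative (Eo-) and an Eomes-positive (Eo+) fraction. Replicates were numbered 1, 2, 5 and 6 in all 3 groups and came from separate differentiation sets of the 1 line, so p-values describe the spread between those sets.

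Eomes is a T-box transcription factor of the primitive streak, from which mesoderm and endoderm leave the epiblast by migration. Aplnr, Cxcr4 and Ackr3 are receptors with 7 membrane-spanning segments. Apelin, the product of Apln, and the short peptide Apela (also Elabela or Toddler) are the ligands of Aplnr, which steers gastrulating cells and heart precursors. Cxcl12 is a secreted chemokine that attracts cells bearing Cxcr4, which signals through inhibitory G proteins, and it guides nascent endoderm and mesoderm, germ cells and blood precursors. Ackr3 binds the same chemokine, recruits arrestins and takes the ligand up, and so shapes the gradient that Cxcr4 reads.

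The difference in signalling between the receptors has a known counterpart in sequence, at the inner end of the third membrane segment, where chemokine receptors that couple to G proteins carry a conserved run that begins with Asp-Arg-Tyr, and Ackr3 departs from it in the residues that follow. The coding sequence around the first Asp-Arg-Tyr of each receptor is shown for that reason, from the GENCODE M21 transcripts on GRCm38, 5′ to 3′, with the 7 codons that begin with Asp-Arg-Tyr in capitals. All 3 stretches are exonic and coding. They lie at chr2:85136987-85137037 on the plus strand (Aplnr), chr1:128589485-128589535 on the minus strand (Cxcr4) and chr1:90214226-90214276 on the plus strand (Ackr3).
Aplnr: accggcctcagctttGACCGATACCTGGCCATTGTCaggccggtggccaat
Cxcr4: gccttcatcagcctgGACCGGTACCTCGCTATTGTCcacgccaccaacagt
Ackr3: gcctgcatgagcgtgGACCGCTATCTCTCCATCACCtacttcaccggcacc
Over the 21 bases in capitals Aplnr and Cxcr4 were identical at 18 and encoded the same residue in 7 of 7 codons. Ackr3 was identical to Aplnr at 14 bases and to Cxcr4 at 14, and encoded the same residue as either in 5 of 7 codons. The annotated proteins had 377 residues (Aplnr), 359 (Cxcr4) and 362 (Ackr3).

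Apelin is made as a precursor of 77 residues and is active as peptides cut from its carboxyl end, of which apelin-13 is the best known. The 231 coding bases are shown with the last 13 codons in capitals. Those 13 codons lie within 1 exon at chrX:48028302-48028340, minus strand.
Apln: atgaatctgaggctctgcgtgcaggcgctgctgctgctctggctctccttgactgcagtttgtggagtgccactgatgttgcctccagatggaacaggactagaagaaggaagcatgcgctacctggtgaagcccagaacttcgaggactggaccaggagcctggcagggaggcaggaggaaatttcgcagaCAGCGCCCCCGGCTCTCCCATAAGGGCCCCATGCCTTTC

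Each library held 648413022 to 837308168 counts over loci, so that the limit a count of 0 allows (3 counts) was 0.00354 to 0.00467 CPM (counts scaled to library size by the trimmed mean of M-values). Such limits cover counting error only. Eomes itself spanned 36.5 to 57.2 CPM in ESC, 116 to 168 CPM across the Eo- libraries and 446 to 641 CPM across the Eo+ ones, so the sort and the labels went together and the negative fraction was not without Eomes RNA. Some libraries stood apart in markers. Eo+ replicate 5 had a summed level of 265 CPM over 9 cardiac and lateral mesoderm markers where its fellow Eo+ libraries had 553 to 657 CPM, and 392 CPM of Cer1, an endoderm gene, against 185 to 248 CPM. Of the other definitive endoderm markers, Foxa2, Sox17 and Trh were also highest in that library, while Hhex, Foxa1 and Gsc were not. In Eo- replicate 1 the summed level of 10 endothelial and blood precursor markers was 210 CPM, beside 39.3 to 73.4 CPM in replicates 2, 5 and 6. The 15 feeder fibroblast markers summed to 464 and 474 CPM in ESC replicates 1 and 5, against 225 and 164 CPM in replicates 2 and 6, and to between 41.0 and 73.5 CPM in the day 3 libraries. As the RNA is bulk, fewer cells of a type and less RNA per cell cannot be told apart in any value given here.

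All 3 receptors were higher in Eo+ than in Eo- and ESC, while Cxcl12 was highest in Eo-. Counting both directions, 4 of the 5 genes were called at an adjusted p of 0.05 or less in Eo+ against ESC (71.9% of all loci were called), all 5 in Eo- against ESC (62.2%) and all 5 in Eo+ against Eo- (47.7%). In Eo+ against ESC, 4 genes were higher (35.8% of all loci) and 0 lower (36.1%). In Eo- against ESC, 4 were higher (30.9%) and 1, Ackr3, was lower (31.3%). In Eo+ against Eo-, 4 were higher (23.0%) and 1, Cxcl12, was lower (24.7%). The test was limma on voom weights over all loci with Benjamini-Hochberg adjustment, and the median log2 fold change over all loci lay between -0.01 and 0.02 in the 3 comparisons.

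**Figure D1:**
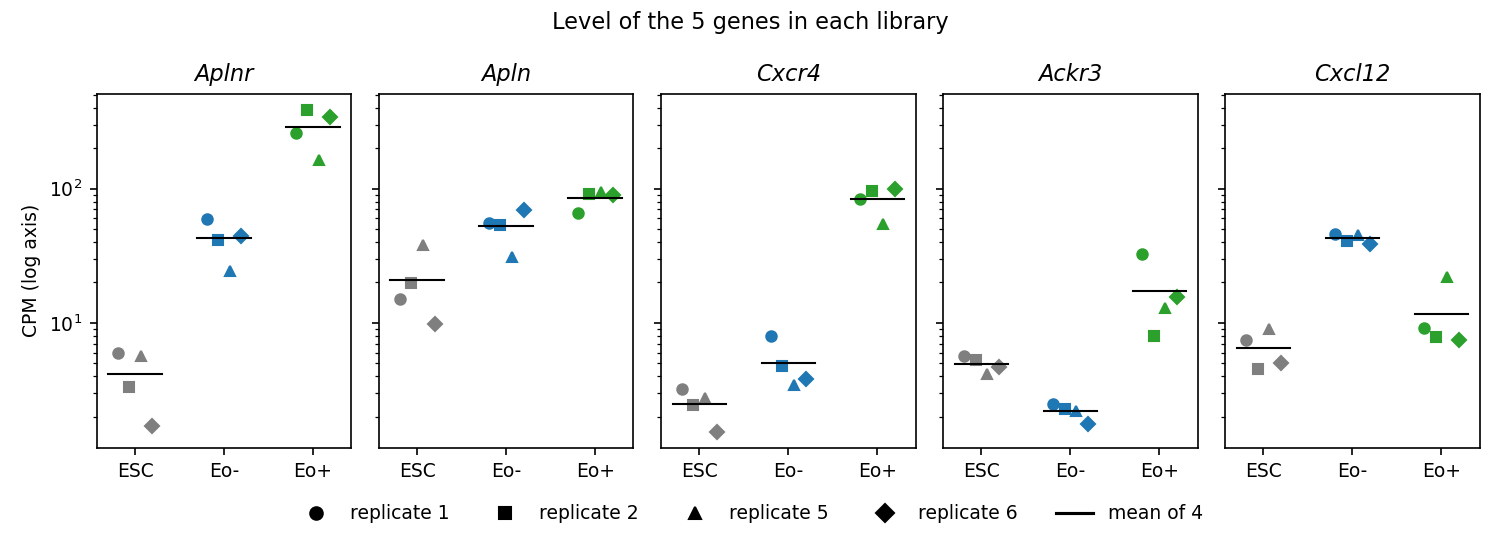
Level of each gene in every library, in CPM on a log axis, with 1 point per library, its shape giving the replicate number and its color the group, and a bar at the mean of 4. Aplnr and Cxcr4 climb to means of 288 and 83.5 CPM in Eo+, Ackr3 is lowest in Eo- and Cxcl12 peaks in Eo- at a mean of 42.8 CPM.

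Aplnr, the apelin receptor, covered the widest range. It was at 5.99, 3.31, 5.67 and 1.70 CPM in ESC replicates 1, 2, 5 and 6, at 59.4, 41.7, 24.2 and 44.7 CPM in Eo- and at 259, 388, 163 and 340 CPM in Eo+. No library of one group reached the range of another, and the order ESC, Eo-, Eo+ held in every numbered set. Aplnr rose by 6.17 ± 0.49 (log2 fold change ± SE; adjusted p = 8.8e-08) from ESC to Eo+, which is 72.2-fold and ranked 65th of all 17931 loci. It also rose by 3.43 ± 0.51 (adjusted p = 5.6e-05) from ESC to Eo- and stood 2.75 ± 0.30 higher in Eo+ than in Eo- (adjusted p = 9.2e-06). The locus is at chr2:85135904-85193657 on the plus strand and joins the gene (chr2:85136225-85139923) to Gm13713, an annotated lncRNA downstream, so the counts of these 2 genes could not be split.

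Cxcr4, the signalling receptor of Cxcl12, separated the sorted fractions most. Its levels were 3.22, 2.45, 2.74 and 1.54 CPM in ESC, 7.95, 4.74, 3.45 and 3.82 CPM in Eo-, and 84.3, 96.7, 54.4 and 98.6 CPM in Eo+. The lowest Eo+ library thus lay well above the highest Eo- library, whereas the highest ESC and lowest Eo- libraries were close. Cxcr4 was 17.1-fold higher in Eo+ than in Eo- (log2 fold change 4.09 ± 0.28, adjusted p = 2.9e-07), the 72nd largest rise of all loci, and 33.6-fold higher than in ESC (5.07 ± 0.32, adjusted p = 1.4e-08). The smaller rise from ESC to Eo-, 0.97 ± 0.39 (adjusted p = 0.044), lost its call without any 1 of ESC replicates 2, 5 and 6 and Eo- replicates 1 and 2, at adjusted p between 0.062 and 0.14. Eo- replicate 1, with the highest Cxcr4 of its group, was also the library with the most endothelial and blood precursor RNA. Without it the value was 0.72, and the part of those cells in the rise was not tested.

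Ackr3, the scavenging receptor, was the 1 receptor with its lowest level in Eo-. It was at 5.64, 5.28, 4.19 and 4.67 CPM in ESC, at 2.48, 2.29, 2.21 and 1.76 CPM in Eo- and at 32.6, 7.93, 12.8 and 15.5 CPM in Eo+. The 3 groups did not overlap, although the Eo+ libraries spread 4.11-fold while the others spread 1.35-fold and 1.41-fold. Relative to ESC, Ackr3 rose in Eo+ (1.62 ± 0.36, adjusted p = 0.0012) and fell in Eo- (-1.18 ± 0.46, adjusted p = 0.037), so that Eo+ stood 6.96-fold above Eo- (2.80 ± 0.41, adjusted p = 0.0001). The fall in Eo- lost its call in 7 of 12 fits that each left out 1 library (ESC replicates 1, 2 and 6 and every Eo- replicate in turn), at adjusted p between 0.057 and 0.086. The Eo+ library with the most Ackr3, replicate 1, also held the most RNA of the endothelial genes Cdh5 (17.1 CPM, beside 1.34 to 3.3 CPM in replicates 2, 5 and 6) and Pecam1 (8.78 against 0.864 to 1.95 CPM). The whole list of endothelial and blood precursor markers did not follow Ackr3 in the other libraries, since its sum was 541, 314, 136 and 488 CPM in replicates 1, 2, 5 and 6 and Etv2 was higher in replicates 2 and 6 (81.4 and 104 CPM) than in replicate 1 (44.4 CPM). Within Eo-, Cdh5 was at 39.4 CPM in replicate 1, where Ackr3 was 2.48 CPM. The summed level of visceral endoderm markers in Eo+ was 85.0 CPM in replicate 1 and 4.63 CPM in replicate 2, the libraries with the most and the least Ackr3. In replicates 5 and 6 it was 41.8 and 17.4 CPM, the reverse of their order by Ackr3. The part of either cell type in the Ackr3 level was not tested.

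Apln, the apelin gene, rose with its receptor but over a narrower range. It was at 14.96, 19.9, 38.2 and 9.80 CPM in ESC, 55.6, 53.3, 30.8 and 69.3 CPM in Eo- and 66.3, 91.8, 94.6 and 89.7 CPM in Eo+. ESC replicate 5 lay above Eo- replicate 5, and Eo- replicate 6 lay above Eo+ replicate 1, so that only ESC and Eo+ were free of overlap. Apln rose from ESC by 2.19 ± 0.32 in Eo+ (adjusted p = 3.1e-05) and by 1.44 ± 0.33 in Eo- (adjusted p = 0.0018). Its difference between the fractions, 0.75 ± 0.28 (95% interval 0.16 to 1.35, adjusted p = 0.038), was 1.68-fold. With the replicate number as a block that difference was 0.77 (adjusted p = 0.061) over all 12 libraries and 0.75 (adjusted p = 0.015) over the day 3 libraries alone. It also lost its call without any 1 of Eo- replicates 2 and 5 and Eo+ replicates 2, 5 and 6, and was smallest without Eo- replicate 5 (0.52, adjusted p = 0.12).

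Apela, the second ligand of Aplnr, shares its assembled locus with Trim60, Trim61 and Gm45886, and those counts could not be split. That locus, at chr8:64995221-65037537 on the minus strand, averaged 62.0 ± 13.7 CPM (SD, n = 4) in ESC, 51.6 ± 10.2 CPM in Eo- and 34.8 ± 17.3 CPM in Eo+. It fell by 0.92 on the log2 scale from ESC to Eo+ (adjusted p = 0.0053). Eo+ replicate 5, at 60.6 CPM, lay within the ESC range, and the other Eo+ libraries were at 24.1 to 29.9 CPM. Its differences between Eo- and ESC (-0.27, adjusted p = 0.35) and between the fractions (-0.65, adjusted p = 0.051) did not pass the test. With the replicate block the latter was -0.61 (adjusted p = 0.047) over all 12 libraries and -0.62 (adjusted p = 0.067) over the day 3 libraries alone. It was also called without any 1 of ESC replicates 2 and 5, Eo- replicate 1 and Eo+ replicate 5, and was largest without the last of these (-0.94, adjusted p = 0.0018).

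Cxcl12, the chemokine, ran against its receptors in the sorted cells. It was at 7.47, 4.55, 9.01 and 5.05 CPM in ESC, at 46.1, 41.0, 45.2 and 38.8 CPM in Eo-, and at 9.15, 7.84, 22.0 and 7.48 CPM in Eo+. The Eo- libraries were tight and stood above all others, whereas Eo+ overlapped ESC and held 1 library, replicate 5, far above its fellows. Cxcl12 rose 6.76-fold from ESC to Eo- (2.76 ± 0.28, adjusted p = 1.8e-06) and was 4.10-fold lower in Eo+ than in Eo- (-2.03 ± 0.25, adjusted p = 2.5e-05). Without Eo+ replicate 5 the difference between fractions was -2.38. In Eo+ against ESC the change of 0.72 ± 0.32 (95% interval 0.04 to 1.40) missed the threshold at adjusted p = 0.054. Without Eo+ replicate 5 it was 0.38 (adjusted p = 0.12), with the replicate block it was called at 0.77 (adjusted p = 0.013), and it was also called without any 1 of ESC replicate 5, Eo+ replicate 2 and Eo+ replicate 6 (0.87 to 0.90). Cxcl12 is made by fibroblasts, and in ESC Cxcl12, Aplnr and Cxcr4 were higher in the 2 libraries with more feeder markers (replicates 1 and 5) than in the other 2. Those 2 libraries also had more of the mesendoderm markers Mixl1 (18.6 and 27.4 CPM, against 8.76 and 3.95 CPM) and Lhx1 (6.22 and 9.93, against 2.85 and 1.98 CPM), and Gsc split them the same way, although the whole mesendoderm list did not split the libraries that way (187 and 352 CPM, against 214 and 111 CPM). Col1a1 (31.8 to 93.0 CPM) and Col3a1 (7.94 to 15.2 CPM) marked feeders in all 4 ESC libraries. The part of feeders or of mesendoderm cells in the ESC levels was not tested. Of 13 feeder markers tested, 10 were lower and 1 higher in Eo- than in ESC (31.3% and 30.9% of all loci). In Eo-, where Cxcl12 was highest, Col1a1 was at 1.42 to 2.65 CPM and Col3a1 at 0.149 to 0.986 CPM. The marker that was higher, Thy1, peaked in Eo- like Cxcl12 but was lowest in Eo+, with means of 14.1 CPM in ESC, 21.3 CPM in Eo- and 7.49 CPM in Eo+ (adjusted p = 0.015 for Eo- against ESC and 0.00013 between the fractions). Dcn (0.629 CPM in ESC and 0.503 CPM in Eo-) and Fbn1 (11.8 and 8.46 CPM) did not pass the test between those groups.

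**Figure D2:**
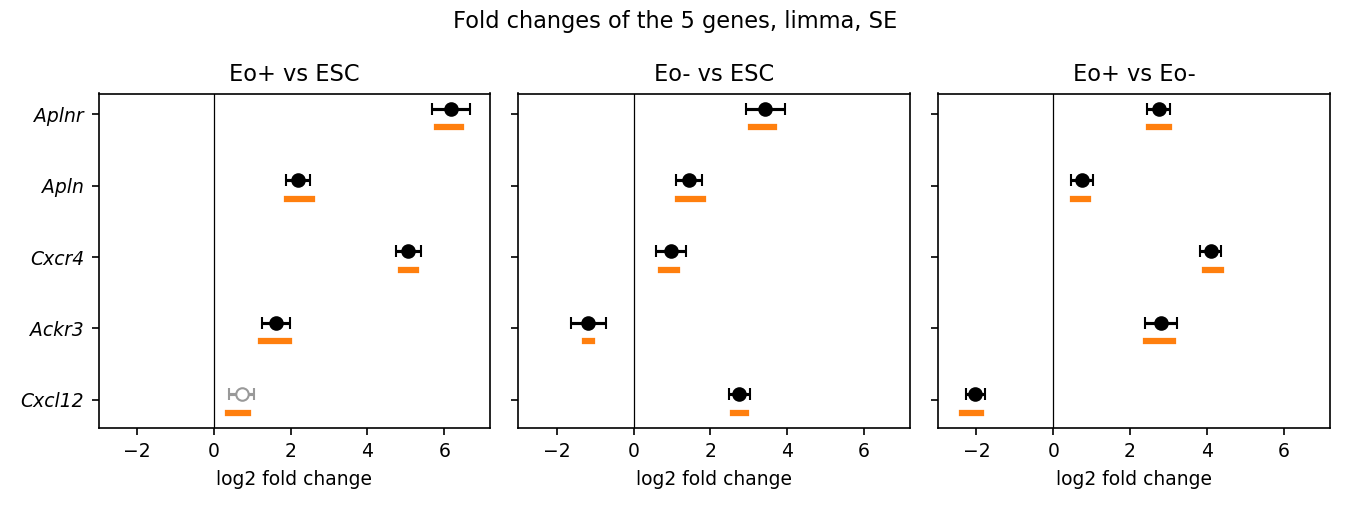
Log2 fold change with its SE (limma, 4 libraries per group) for each gene in the 3 comparisons. Filled points passed an adjusted p of 0.05, the open point (Cxcl12 in Eo+ against ESC, adjusted p = 0.054) did not, and orange bars span the values obtained when each library was left out in turn, none of which crossed 0.

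The same-numbered fractions, sorted from the same differentiation, repeated these directions. Between Eo+ and Eo- of one number, the log2 difference in CPM was 2.12, 3.22, 2.75 and 2.93 for Aplnr, and 3.41, 4.35, 3.98 and 4.69 for Cxcr4. Ackr3 differed by 3.71, 1.79, 2.53 and 3.14. Every receptor was therefore higher in Eo+ in 4 of 4 sets. Apln differed by 0.26, 0.78, 1.62 and 0.37 and Cxcl12 by -2.33, -2.39, -1.04 and -2.37. Set 5 had the widest gap of Apln and the narrowest of Cxcl12.

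Per length of exon, the order of the 5 genes changed between the groups. In ESC, Apln was the most abundant of the 5 at 6.54 ± 3.90 FPKM (SD, n = 4), and the receptors and Cxcl12 lay together between 0.647 and 1.48 FPKM. The Apela locus, with the other genes joined to it, stood at 6.89 ± 1.52 FPKM in ESC. The leading ligand of Aplnr there cannot be named, since those counts could not be split. In Eo-, Apln was at 16.5 ± 5.04 FPKM, followed by Aplnr (6.60 ± 2.24) and Cxcl12 (5.21 ± 0.42), which overlapped, then Cxcr4 (2.75 ± 1.12) and Ackr3 (0.652 ± 0.092). In Eo+, Cxcr4 (45.9 ± 11.2 FPKM) and Aplnr (44.7 ± 15.3 FPKM) shared the top with overlapping ranges, above 94.3% and 94.1% of tested loci. Apln followed at 27.0 ± 4.11 FPKM and overlapped the lowest Aplnr library, and Ackr3 (5.14 ± 3.202) and Cxcl12 (1.42 ± 0.85) came last with ranges that overlapped. With the length of the Aplnr transcript alone in place of the joined locus, Aplnr would be 77.8 ± 26.6 FPKM in Eo+, 11.5 ± 3.91 in Eo- and 1.13 ± 0.549 in ESC. These are upper limits, since the counts still include Gm13713.

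To compare ligand with receptor within a library, the log2 ratio of their FPKM values was taken after adding 0.1 FPKM to each, and groups were compared by a two-sided exact permutation test, for which the smallest p of 4 against 4 is 0.0286. Across 4 ratios and 3 comparisons, 10 of 12 had that smallest p, which is 0.0343 after Benjamini-Hochberg adjustment over the 12. Apln exceeded Aplnr in ESC in every library (4.69 to 12.4 times), did so less in Eo- (1.89 to 3.12 times) and lay near or below it in Eo+ (0.521, 0.483, 1.18 and 0.537 times). With the length of the longest matched transcript in place of the joined exons, Apln was at 2.82 to 7.49 times Aplnr in ESC, 1.10 to 1.81 times in Eo- and 0.279 to 0.682 times in Eo+, so that all 4 Eo+ libraries then lay below 1. Those ratios are lower limits, since the Aplnr counts still include Gm13713. The log2 ratio fell by 1.77 from ESC to Eo- and by 1.98 from Eo- to Eo+. Cxcl12 was at 0.453 to 0.755 times the level of Cxcr4 in ESC, 1.28 to 2.80 times in Eo- and 0.0186 to 0.0928 times in Eo+. That last pair of groups differed by 5.99 on the log2 scale, in the same direction in 4 of 4 sets.

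Against Ackr3, Cxcl12 was 6.51 to 7.73 times as abundant in each Eo- library, but 0.391 to 0.887 times in ESC and 0.124 to 0.711 times in Eo+. ESC and Eo+ were not separated (difference -0.89, exact permutation p = 0.229, adjusted p = 0.229). Finally, Cxcr4 and Ackr3 were about level in ESC (0.633 to 1.19), and Cxcr4 led by 2.63 to 5.32 times in Eo- and by 4.73 to 21.6 times in Eo+. The Cxcr4 lead did not pass the test between the fractions (difference 1.43, exact permutation p = 0.0571, adjusted p = 0.0623), and in set 1 it was smaller in Eo+ (4.73) than in Eo- (5.32). Apart from that set, the Cxcr4 lead was larger in Eo+ than in Eo- of the same number.

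**Figure D3:**
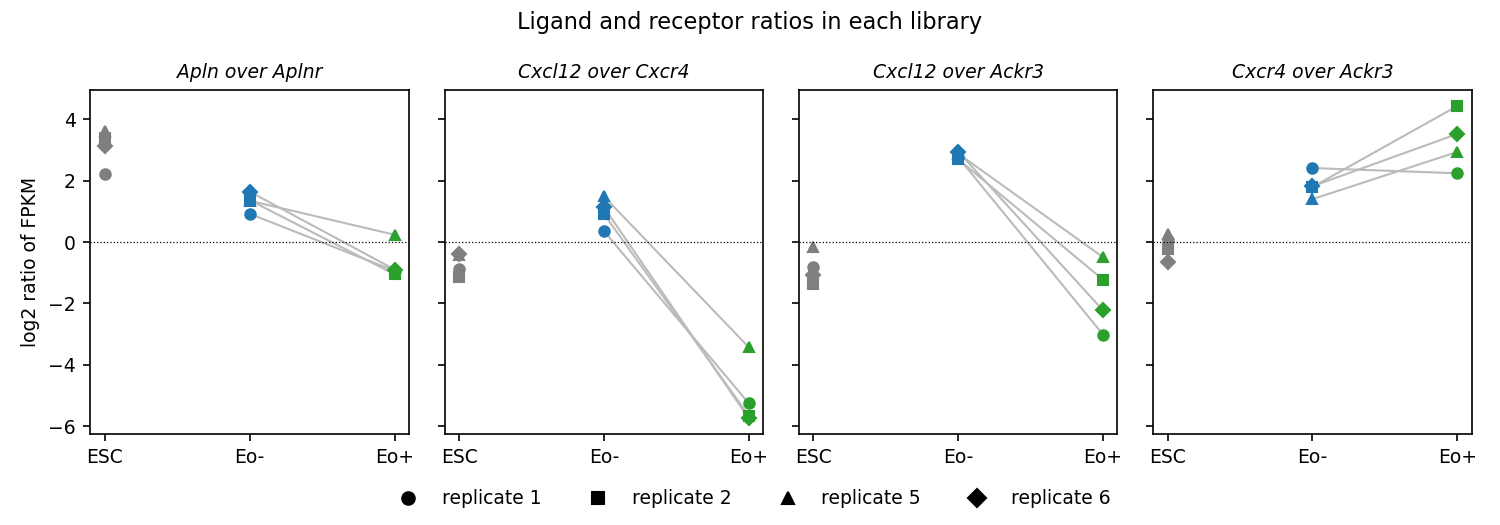
Log2 ratio of FPKM for 4 pairs of genes in each library, with grey lines joining the Eo- and Eo+ fractions of one replicate number and a dotted line at equal levels. Cxcl12 over Cxcr4 drops in all 4 sets from between 0.36 and 1.49 to between -5.75 and -3.43, and Eo+ replicate 5 sits above the other Eo+ libraries in the first 3 ratios.

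Genes that work with the 5 receptors and ligands, and other chemokine and guidance genes, were read from 8 lists, with the 5 left out. Of 154 loci listed, 115 passed the expression filter. In Eo+ against ESC 60 were higher and 28 lower (median log2 fold change 0.37, against 0.00 over all loci). In Eo- against ESC the counts were 44 and 30 (median 0.19), and in Eo+ against Eo- 48 and 16 (median 0.20, against -0.01 over all loci). The shares called, 76.5%, 64.3% and 55.7%, stand beside 71.9%, 62.2% and 47.7% over all loci. Of all loci, 35.8% were higher and 36.1% lower in Eo+ against ESC, and 30.9% and 31.3% in Eo- against ESC. In Eo+ against Eo- those shares were 23.0% and 24.7%.

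In the apelin system, 4 of 5 loci besides Aplnr and Apln were tested. Furin, a protease that trims peptide precursors, rose in step from 20.3 ± 3.43 CPM (SD, n = 4) in ESC to 38.4 ± 4.73 CPM in Eo- and 60.1 ± 11.9 CPM in Eo+, a difference of 0.63 between the fractions (adjusted p = 0.0020). Mme, the membrane peptidase neprilysin that degrades apelin, fell from 22.9 ± 7.85 CPM in ESC to 5.45 CPM in Eo- and 4.85 CPM in Eo+ (adjusted p = 3.1e-06 and 9.4e-07).

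Among partners of the Cxcl12 system, 4 of 9 tested rose and 3 fell in Eo+ against ESC (35.8% and 36.1% of all loci). In Eo- against ESC 3 rose and 4 fell (30.9% and 31.3%), and in Eo+ against Eo- 2 rose and 2 fell (23.0% and 24.7%). The shares called, 77.8%, 77.8% and 44.4%, stand beside 71.9%, 62.2% and 47.7% over all loci. Cxcl14, a chemokine that binds Cxcr4, fell from 3.39 ± 1.12 CPM in ESC to 0.767 CPM in Eo- and 0.164 CPM in Eo+. Adm, adrenomedullin, which Ackr3 also takes up, fell by 2.44 on the log2 scale in Eo- against ESC (adjusted p = 0.00032). Its receptor Calcrl rose by 2.58 (adjusted p = 0.010), with a spread as large as its mean in Eo- (5.10 ± 5.36 CPM). Between the fractions Cxcl14, under 1 CPM in both, was 2.27 lower in Eo+ (adjusted p = 0.00022). Mif, a cytokine that binds Cxcr4 and Ackr3, was 0.39 lower (adjusted p = 0.018). Itch, a ubiquitin ligase that acts on Cxcr4, was 0.26 higher (adjusted p = 0.022) with libraries that overlapped, and Hmgb1, which forms a complex with Cxcl12, was 0.21 higher (adjusted p = 0.019). Those 4 calls between the fractions became 1 without Eo- replicate 2. Dpp4, the peptidase that inactivates Cxcl12, fell from 12.98 CPM in ESC to 2.78 CPM in Eo- (log2 fold change -2.24) and averaged 9.88 CPM in Eo+, where neither difference passed the test.

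Most other chemokine genes were not among the loci tested. Of 21 other chemokine receptors 6 were tested. In Eo+ against ESC 2 rose and 3 fell (35.8% and 36.1% of all loci), and in Eo- against ESC 1 and 3 (30.9% and 31.3%). In Eo+ against Eo- the counts were 1 and 1 (23.0% and 24.7%). Those 2 calls between the fractions became 1 without any 1 of Eo- replicates 2, 5 and 6 and Eo+ replicates 1, 2 and 6. Ccr7, a receptor for homing of lymphocytes and dendritic cells, was the one with a rise between the fractions, from 0.387 ± 0.026 CPM in Eo- to 2.66 ± 1.14 CPM in Eo+ (log2 fold change 2.65, adjusted p = 6.0e-05). Ackr1, an erythroid scavenger, shares its locus with Cadm3, and that locus rose by 3.26 in Eo- and 2.89 in Eo+ relative to ESC. Of 33 other ligands 15 were tested. Relative to ESC, 9 fell in each fraction (36.1% of all loci in Eo+ and 31.3% in Eo-), while 3 rose in Eo+ and 1 in Eo-. Some that fell passed the filter through ESC alone, so a rise could hardly be called for them. Ccl7, for example, was at 0.816 CPM in ESC, 0.0050 CPM in Eo- and 0.0016 CPM in Eo+. Between the fractions 2 were higher and 5 lower in Eo+ (23.0% and 24.7% of all loci). Those 7 calls became 4 without any 1 of Eo- replicates 2 and 6 and Eo+ replicates 1 and 6. Among those that fell was Ccl2, a monocyte attractant, which averaged 1.97 ± 1.24 CPM in ESC, 0.0080 CPM in Eo- and 0.0218 CPM in Eo+. Cx3cl1, a membrane-bound chemokine, rose from 5.57 ± 1.47 CPM in ESC to 10.1 ± 1.93 CPM in Eo- and 15.7 ± 6.20 CPM in Eo+. Between the fractions Cxcl10, an interferon-induced ligand, was 0.97 lower in Eo+ (adjusted p = 0.045) and Ccl25, a thymic and gut chemokine, 0.62 higher (adjusted p = 0.0013). The myeloid and mast cell markers Lyz2 (counted with Lyz1) and Mcpt8, also highest in ESC (7.89 and 3.21 CPM on average, against at most 0.105 and 0.00164 CPM at day 3), moved with the ligands that fell. So did feeder markers such as S100a4 (11.9 CPM in ESC, 0.0104 CPM in Eo- and 0.00744 CPM in Eo+) and Lox (26.8, 0.178 and 0.161 CPM). The part of either cell type in the fall was not tested.

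Inside the cell, G proteins, arrestins and receptor kinases all passed the filter. Of 20 tested, 16 rose and 1 fell in Eo+ against ESC (35.8% and 36.1% of all loci). In Eo- against ESC 13 rose and 1 fell (30.9% and 31.3%), and in Eo+ against Eo- 9 rose and 2 fell (23.0% and 24.7%). Grk3, a kinase that desensitizes receptors, had the largest rise from ESC to Eo+, 2.31 (from 4.69 ± 0.916 to 23.2 ± 4.36 CPM). Gnao1, an inhibitory-class subunit, had the largest in Eo-, 1.503. Between the fractions Gnai1, an inhibitory subunit, was 0.91 higher in Eo+ (adjusted p = 0.00028) and Arrb2, β-arrestin 2, was 0.47 lower (adjusted p = 0.00093). Regulators of G protein signalling, which shorten the signal, passed the filter in 14 of 17 cases. They had 8 higher and 1 lower in Eo+ against ESC, 8 and 0 in Eo- against ESC, and 6 and 2 in Eo+ against Eo-. Their shares called, 64.3%, 57.1% and 57.1%, stand beside 71.9%, 62.2% and 47.7% over all loci. Rgs5 rose from 0.583 CPM in ESC and 1.26 CPM in Eo- to 15.7 ± 6.05 CPM in Eo+ (log2 fold change between the fractions 3.71, adjusted p = 1.1e-05). Rgs11 was 1.23 lower in Eo+ than in Eo-, Rgs20 rose by 2.04 in Eo-, and Rgs14 fell by 0.69 in Eo+.

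Of 24 tested effectors of migration, 14 rose and 5 fell in Eo+ against ESC (35.8% and 36.1% of all loci). In Eo- against ESC 7 rose and 5 fell (30.9% and 31.3%), a share called of 50% beside 62.2% over all loci. In Eo+ against Eo- 12 rose and 2 fell (23.0% and 24.7%). Prex1, a Rac activator that answers to the G protein βγ subunits, stood out in all 3 comparisons, with 4.81 ± 0.808 CPM in ESC, 16.2 ± 2.18 CPM in Eo- and 37.9 ± 5.37 CPM in Eo+. Dock2, the Rac activator of blood cells, fell from 1.90 ± 0.350 to 0.481 and 0.0802 CPM. Pak1, a kinase downstream of Rac, was 0.55 lower in Eo+ than in Eo- (adjusted p = 0.00068).

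Guidance genes of nascent mesoderm outside the 2 systems were called in 18 of 24 cases between the fractions (47.7% of all loci were). Of these 15 were higher (23.0%) and 3 lower (24.7%) in Eo+. Relative to ESC, 12 were higher and 5 lower in Eo+ (35.8% and 36.1% of all loci), and 10 higher and 8 lower in Eo- (30.9% and 31.3%). The share called in Eo+ against ESC, 70.8%, was near the 71.9% of all loci. Pdgfra, a receptor of migrating mesoderm, went from 5.72 ± 2.13 CPM in Eo- to 91.3 ± 33.7 CPM in Eo+ (log2 fold change 3.96, adjusted p = 4.3e-06), close to the 4.09 of Cxcr4. Kdr, a VEGF receptor of mesoderm and endothelium, had the largest rise relative to ESC in both fractions (6.24 in Eo+ and 2.96 in Eo-), where Aplnr rose by 6.17 and 3.43. In Eo- replicates 1, 2, 5 and 6 Kdr was at 52.1, 17.1, 7.24 and 14.8 CPM, highest in the library with the most endothelial and blood precursor RNA. Fgf4, an epiblast ligand, was 1.99 lower in Eo+ than in Eo-, and Pdgfc, a ligand of Pdgfra, fell by 3.97 in Eo+ and 3.22 in Eo- relative to ESC.

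**Figure D4:**
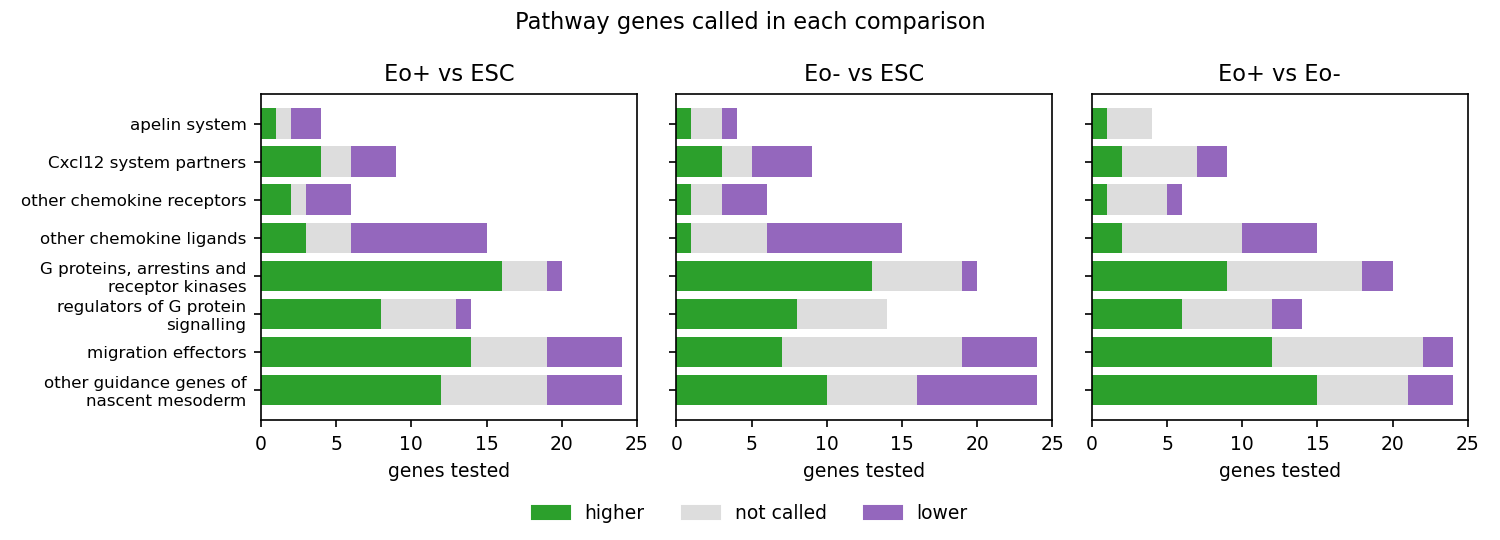
Number of tested genes in each of 8 pathway lists that were higher (green), not called (grey) or lower (purple) in each comparison, at an adjusted p of 0.05 by limma, without Aplnr, Apln, Cxcr4, Cxcl12 and Ackr3. Green outweighs purple for G proteins, their regulators, migration effectors and guidance genes, and purple outweighs green for other chemokine ligands.

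The cell state of the fractions was read from 9 marker lists. Pluripotency genes fell (7 of 7 tested in Eo+ and 6 of 7 in Eo-, relative to ESC), and mesendoderm genes rose (7 of 7 and 5 of 7). Of all loci, 36.1% fell in Eo+ and 31.3% in Eo-, and 35.8% and 30.9% rose. Definitive endoderm (6 of 7), cardiac and lateral mesoderm (6 of 8), endothelial and blood precursor (6 of 9) and visceral endoderm genes (5 of 7) rose in Eo+ relative to ESC (35.8% of all loci did), while 0, 1, 1 and 1 of their genes fell, among them Pecam1 (-4.48), Smarcd3 (-0.77) and Amn (-1.70). In Eo- relative to ESC the same lists had 3 of 7, 3 of 8, 5 of 9 and 1 of 7 higher (30.9% of all loci) and 0, 2, 1 and 1 lower (31.3%). Feeder genes (11 of 13 in Eo+ and 10 of 13 in Eo-), myeloid and mast cell genes (6 of 7 in each) and neuroectoderm genes (4 of 5 in each) fell. Several of these lineages use the 5 genes, and their shares in the levels were not tested. In Eo+ replicate 5, where cardiac and lateral mesoderm markers were lowest and Foxa2 highest (163 CPM against 90.4 to 101 CPM), Aplnr and Cxcr4 were the lowest of the group and Cxcl12 the highest. The endoderm markers Hhex, Foxa1 and Gsc were not highest in that library. Without it, the differences between Eo+ and Eo- were 3.01 for Aplnr, 4.30 for Cxcr4 and 2.89 for Ackr3.

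Around the 5 genes, 65 other loci lay within 100 kb and 15 of them were tested. Between the fractions 8 of the 15 were higher in Eo+ (23.0% of all loci were) and 0 lower (24.7%). In Eo+ against ESC 12 were higher and 1 lower (35.8% and 36.1% of all loci), and in Eo- against ESC 9 were higher and 3 lower (30.9% and 31.3%). The 2 tested near Cxcr4 and 5 of the 7 near Aplnr were among the 8. The neighbor of Cxcr4 at chr1:128547283-128549473 averaged 0.0022 CPM in ESC, 0.0018 CPM in Eo- and 0.108 ± 0.075 CPM in Eo+. It passed the expression filter through Eo+ alone, so a fall there could hardly be called. Other low lncRNA loci of the 15 were also highest in Eo+, so the filter in part sets these counts. A non-annotated lncRNA locus at chr1:128654053-128703117, on the strand opposite to Cxcr4, has its 5′ end at -61.76 kb from the start of Cxcr4 (negative values lie upstream), whose assembled locus reaches 51840 bases upstream of the annotated gene. That lncRNA averaged 0.00628 CPM in ESC, 0.0308 ± 0.0186 CPM in Eo- and 1.02 ± 0.166 CPM in Eo+ (log2 fold change between the fractions 5.41 ± 0.64, adjusted p = 1.8e-05). Near Aplnr, the lncRNA Gm13715 (chr2:85223940-85243956, plus strand) had means of 0.0459, 0.450 and 1.92 CPM in ESC, Eo- and Eo+, so that it rose by 5.42 in Eo+ and 3.34 in Eo- relative to ESC, beside 6.17 and 3.43 for Aplnr. Lrrc55, a protein-coding gene on the opposite strand that overlaps the Aplnr locus, rose too, by 1.05 ± 0.25 between the fractions (adjusted p = 0.0034). Not all neighbors moved: Ssrp1, a histone chaperone gene, differed by 0.01 between the fractions (adjusted p = 0.96). Close to Cxcl12, a non-annotated lncRNA locus at chr6:117144337-117151989 was higher than ESC in both fractions (4.79 in Eo- and 4.36 in Eo+), and its difference between the fractions was -0.44 (adjusted p = 0.51), beside -2.03 for Cxcl12. Counts were strand-aware, so reads of opposite strands were kept apart. These neighbors were chosen after their values had been seen.

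**Figure D5:**
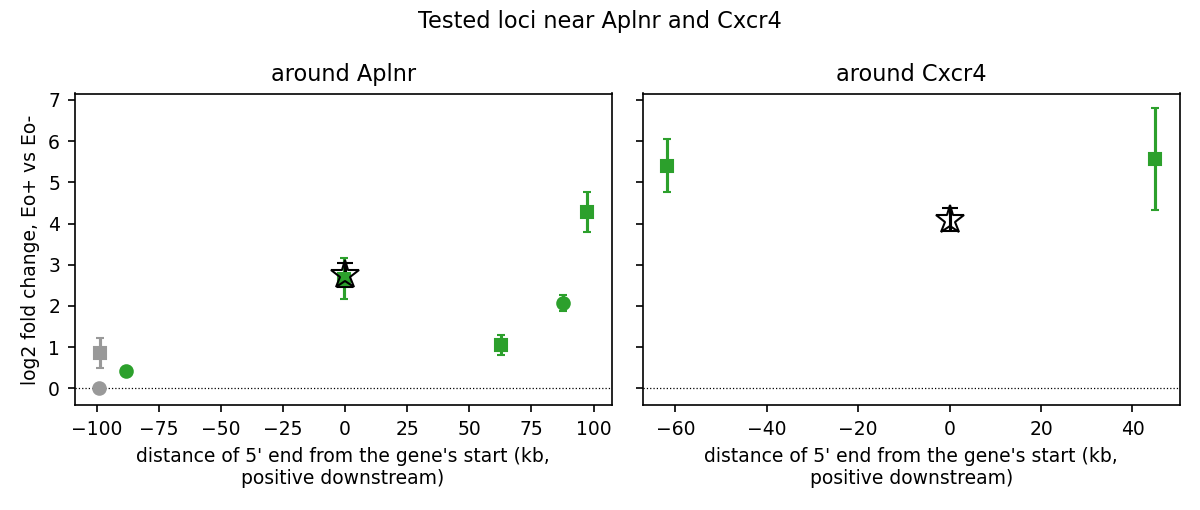
Log2 fold change between Eo+ and Eo- (± SE) of the tested loci within 100 kb of the Aplnr or Cxcr4 locus, by the distance of each 5′ end from the gene's start. Open stars are Aplnr (2.75) and Cxcr4 (4.09), circles lie on the same strand, squares on the opposite one, and grey points did not pass the test. Both neighbors of Cxcr4 lie above 5. The downstream neighbor averages 0.0018 CPM in Eo-, under the limit of 3 counts, and 0.108 CPM in Eo+.

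Genes with a similar course were ranked by the correlation of log2(CPM + 0.1) over the 12 libraries, among 13362 named loci with at least 1 CPM in their highest group. These libraries fall into 3 groups, so that genes with the same order of group means score high, and the values are descriptions. Ranked by Spearman's rho instead, 0 to 2 of the 5 closest loci stayed the same for each gene. Closest to Cxcr4 were Gata6 (r = 0.995) and Gata4 (0.991), factors of endoderm and heart, then Asxl3 (0.990), the atrial light chain gene Myl7 (0.990) and Galnt1 (0.990). Closest to Aplnr were Hmgb3 (0.997), Cdip1 (0.995), Soga1 (0.993), Dchs1 (0.992) and Zmynd11 (0.992), which climb through Eo- to Eo+ over smaller ranges. Apln stood nearest to Cpxm2 (0.986), Fgf8 (0.977), the lncRNA Gm16702 (0.977), Piezo2 (0.975) and Arhgef5 (0.975). Fgf8, a ligand that drives cells out of the primitive streak, went from 40.2 to 83.0 and 154 CPM. Cxcl12 was most like Zbtb7b (0.982), Rab19 (0.975), Sphkap (0.973), Gpr162 (0.972) and Plch1 (0.971), which also peak in Eo-, and Ackr3 like Kdelr2 (0.963), Pigk (0.946), Foxq1 (0.943), Ggta1 (0.941) and Lifr (0.941), which are lowest in Eo-. Among the 5 themselves, Aplnr had r = 0.917 with Cxcr4 and 0.916 with Apln, which ranked 1474th and 1477th among the loci closest to it. Cxcl12 had r = -0.09 with Cxcr4 and -0.57 with Ackr3.

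The promoters were compared because all the receptors were higher in Eo+ than in Eo-. RefSeq start sites on GRCm38.p6 were at hand for 4 of the 5 genes, all but Aplnr. In the 250 bases upstream of each start, searched on both strands, none of the 4 held AGGTGT, a T-box core present in 11.8% of 32851 such windows, or AGATAA, the core bound by Gata factors, present in 9.99%. None held the hypoxia response core ACGTG, which 16.6% of windows hold. An E-box of the form CACGTG, which contains that core, was absent (6.02% of windows hold it), and so was the E-box of the form CAGCTG (13% of windows). That says only that these letters are not in these windows. The last 60 bases before the start are shown with TATAAA, searched on both strands, in capitals. They lie at chr1:128592300-128592359 (Cxcr4, minus strand), chr1:90203920-90203979 (Ackr3, plus), chrX:48034854-48034913 (Apln, minus) and chr6:117168475-117168534 (Cxcl12, plus).
Cxcr4: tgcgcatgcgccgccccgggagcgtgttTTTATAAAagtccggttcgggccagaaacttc
Ackr3: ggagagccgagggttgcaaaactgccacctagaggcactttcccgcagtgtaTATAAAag
Apln: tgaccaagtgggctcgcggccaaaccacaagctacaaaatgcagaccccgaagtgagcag
Cxcl12: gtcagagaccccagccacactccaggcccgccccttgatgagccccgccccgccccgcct
Both Cxcl12 receptors held TATAAA, which begins 30 bases before the start in Cxcr4 (where it overlaps its own reverse complement) and 8 bases before it in Ackr3, and neither ligand did. It was in 3.92% of all such windows. The motif was chosen after the letters had been read, and a match is not a site.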

How the data were processed

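RNA was measured in 12 libraries (4 per group). Per the labels and methods, the authors mapped stranded 2 × 100 bp poly(A) reads to mm10 with STAR (2.0.4 in the submitters' notes), merged Cufflinks 2.2.1 assemblies with the Ensembl annotation and used HTSeq 0.6.1 to count reads over the resulting loci. The deposited table holds these raw counts for 80012 loci, without scaling. A deposited normalized signal table, resembling CPM, served only as a list of loci, and the deposited transcript annotation gave names and positions in mm10 for 79655 loci. The 5 tally lines of the counter stayed out of totals. Multiply aligned reads were 22.4% to 26.2% of all, reads outside loci 2.65% to 3.60% and ambiguous reads under 0.02%, so reads shared with near-identical copies were not counted. Columns of other samples numbered 0.

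CPM were scaled by TMM (factors 0.955 to 1.06), and FPKM are CPM per kilobase of union exon. Loci over 0.1 FPKM in at least 1 group (14225 protein-coding, 993 annotated lncRNA, 2713 non-annotated lncRNA) were fitted by limma-voom (limma 3.58.1, edgeR 4.0.16, R 4.3.3) over all 12 libraries with 1 mean per group, adjusted by Benjamini-Hochberg over all 17931 and called at 0.05. The method was tested on simulated data. Ratios used scipy 1.17.1. Same-numbered Eo- and Eo+ libraries deviated together (correlations of 0.316 to 0.643 over loci in 4 of 4 pairs), as sets of one differentiation per the methods. Same-numbered ESC and day 3 libraries did so only in part (-0.163 to 0.435, the highest between ESC and Eo- of set 2). The blocked value is given where it changes a call.

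The 5 genes and the gene lists were chosen with earlier results of these data known. Named genes were the 5 and Apela, Eomes, for each list and comparison the called genes with the largest rise and fall among those with at least 1 CPM and no overlap between groups, and the 5 loci most alike to each gene. Dpp4, Itch, Cxcl14 between the fractions, markers and neighbors were added after values were seen. Alternatives were DESeq2 1.42.0, edgeR quasi-likelihood, DESeq2 size factors, library totals, no filter, 1 CPM in 4 libraries, the loci of the normalized table, the block, the 2 groups alone and each library left out. One result is not reported here.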

Additional observations from a re-analysis of the deposited data

Results flagged for a closer look

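Of 30 sets of 4 libraries examined, 3 held a library far from the others (a gap past Dixon's 95% critical value, which chance gives in about 1 of 20 sets), and all 3 were Eo+ replicate 5. For Cxcl12 it held 22.0 CPM, where replicates 1, 2 and 6 held 7.48 to 9.15 CPM. The locus of Apela, Trim60 and Trim61 stood at 60.6 CPM and at 24.1 to 29.9 CPM in those replicates. The log2 ratio of Apln over Aplnr was 0.24, against -1.05 to -0.90. The same library had the lowest summed cardiac and lateral mesoderm markers of its group (265 CPM) and the highest summed definitive endoderm markers (2541 CPM against 960 to 1217 CPM), of which Trh gave 1800 CPM. Their part in the 3 values was not tested.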

How the results depend on the processing

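No result reversed. The 15 gene comparisons kept their direction under all alternatives, and 11 of them kept their side of the threshold. The other 4 were as follows. Apln in Eo+ against Eo- was not called without the filter (0.71), by edgeR (0.71), by DESeq2 (0.72) or with the replicate block over 12 libraries (0.77), and ranged from 0.52 to 0.91 with 1 library left out. Cxcr4 in Eo- against ESC was not called with DESeq2 size factors (0.92), without the filter (0.95) or at 1 CPM in 4 libraries (0.93), and ranged from 0.72 to 1.12. Ackr3 in Eo- against ESC ranged from -1.26 to -1.08. Cxcl12 in Eo+ against ESC became called over the loci of the normalized table (0.75), by edgeR (0.83) and with the replicate block (0.77), and ranged from 0.38 to 0.90. The block changed no other call of the 5 genes. The Apela locus in Eo+ against Eo- became called with library totals (-0.69), without the filter (-0.69), at 1 CPM in 4 libraries (-0.69), over the loci of the normalized table (-0.65) and with the replicate block (-0.61). Without a filter, more loci were tested and the loci called rose to 33849, 27830 and 14774 in Eo+ against ESC, Eo- against ESC and Eo+ against Eo-. Summed over the 8 lists, the pathway genes called stayed within 1.5 times. Per list, 15 counts moved further with 1 library left out and 20 under other alternatives, all in the lists of the apelin system, Cxcl12 partners, other chemokine receptors and other chemokine ligands. The called receptors in Eo+ against ESC, for example, went from 5 to 11 without the filter and to 3 at 1 CPM in 4 libraries, and the called ligands from 12 to 22 and to 4. The ratios kept their calls with transcript length or 0.01 FPKM added. By Spearman rank, the 5 loci most alike to a gene shared 0 to 2 of 5 with those by Pearson. The depth limits little here, while 4 libraries per group limit the small differences, and the exact test of 4 against 4 cannot go below 0.0286.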
